A study of Homo sapiens with 4 samples.

Results

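The genes described here encode subunits of nicotinic acetylcholine receptors and of the 5-HT3 serotonin receptor, measured in CHP134 cells, an established human neuroblastoma line with amplified MYCN. Members were taken by name: HTR3A, HTR3B, CHRNA3, CHRNA5, CHRNB4, CHRNA7, CHRNB2, CHRNB1 and CHRNA4. All 9 have an identifier among the 60651 genes of the count table. They were chosen by the levels and shares of cells measured in these 4 samples, so their differences are given as a description, with no test. The study compared single cells after 24 h in DMSO at 0.04%, in 13cRA (isotretinoin, a retinoid) at 5 µM, in doxazosin (a blocker of alpha-1 adrenergic receptors) at 10 µM, or in 13cRA at 5 µM with doxazosin at 10 µM, called the combination below. Each treatment is 1 sample of the same line, and the cell suspensions were dispensed on 1 nanowell chip for full-length cDNA sequencing. A treatment therefore cannot be told apart from its culture well, and cells of 1 sample are not replicates.

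Both receptor groups are cation channels built from a ring of subunits, and the subunits present decide which channels can form. The CHRNA3, CHRNB4 and CHRNA5 products assemble into the ganglionic nicotinic receptor of autonomic neurons and adrenal chromaffin cells, the lineage from which neuroblastoma arises. CHRNA7 products form channels on their own, CHRNB2 and CHRNA4 make up the main high-affinity receptor of the brain, and CHRNB1 belongs to the receptor of muscle. HTR3A products form 5-HT3 channels alone or together with HTR3B, which cannot form one by itself.

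In GENCODE 29 on GRCh38, the 3 ganglionic subunit genes lie side by side: CHRNA5 at chr15:78565520-78595269 on the plus strand, CHRNA3 at chr15:78593052-78621295 on the minus strand and CHRNB4 at chr15:78624119-78727754 on the minus strand. CHRNA3 and CHRNA5 overlap tail to tail by 2218 bases, of which 198 are exonic in both. The counting is not stated to use strand, so reads from that stretch cannot be assigned to one of the pair. CHRNA7 lies apart on the same chromosome at chr15:31923438-32173018, and HTR3B and HTR3A are neighbours at chr11:113904677-113946565 and chr11:113974881-113990313, both on the plus strand. CHRNB2 (chr1:154567781-154580026), CHRNB1 (chr17:7445061-7457707) and CHRNA4 (chr20:63343223-63378401) lie on other chromosomes.

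RefSeq promoter windows on GRCh38.p14 were at hand for 6 of the 9 members. The stretches before a RefSeq transcript start of CHRNA7, which was lower with 13cRA, and of CHRNB4, a neighbour of CHRNA3, are shown so that the letters near a member that moved and near the ganglionic cluster can be read. Both starts lie inside the longer GENCODE 29 gene spans given above. Each stretch is trimmed where an annotated UTR begins, and capitals mark CACGTG, the E-box that MYC family factors can bind, and GGGCGG, the GC box, searched on both strands.
CHRNA7: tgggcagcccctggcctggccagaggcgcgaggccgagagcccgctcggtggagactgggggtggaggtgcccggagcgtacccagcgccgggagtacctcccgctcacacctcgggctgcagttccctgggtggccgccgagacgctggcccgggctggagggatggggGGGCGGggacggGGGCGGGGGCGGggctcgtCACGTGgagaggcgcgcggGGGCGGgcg
CHRNB4: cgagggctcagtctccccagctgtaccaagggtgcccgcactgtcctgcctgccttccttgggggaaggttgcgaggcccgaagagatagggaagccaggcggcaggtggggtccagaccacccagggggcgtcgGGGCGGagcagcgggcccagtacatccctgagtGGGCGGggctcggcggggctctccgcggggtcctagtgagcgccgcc
The CHRNA7 stretch (chr15:32030233-32030461, plus strand, 229 bases) holds 1 CACGTG and 4 GGGCGG, of which the middle pair abut. Windows of that length hold CACGTG in 5.72% and GGGCGG in 39.8% of the 35116 promoters of the table. The CHRNB4 stretch (chr15:78641246-78641460, minus strand, 215 bases) holds 2 GGGCGG and no CACGTG, and windows of that length hold GGGCGG in 38.3% of promoters. AGGTCA, the core element read by retinoid receptors, is not among the letters of either stretch and was found in 11.3% and 10.6% of windows of these lengths. Of the 6 members with a window, CHRNB2 alone has it, 1 time in 250 bases, as 12.1% of promoters do. A match describes letters and not a bound site.

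Levels are counts per 1000000 counts (CPM) of the summed counts of the kept cells, with exact 95% Poisson intervals that cover counting error only, because the libraries have no molecular identifiers and amplified reads are not independent molecules. After filtering, 239 to 353 cells a sample remained, with summed counts from 22636509 in 13cRA to 72192743 in the combination. The 13cRA sample was the shallowest, with a median of 59200.5 counts a cell against 122615 to 221558 in the other 3. Shares of cells were therefore taken after thinning every cell to 34000 counts (328, 249, 235 and 270 cells in DMSO, 13cRA, doxazosin and combination), and 69 of 318 cells in 13cRA were too shallow for it, against 4 to 25 elsewhere. Even at equal counts a 13cRA cell held a median of 3895 genes, against 4679.5 to 4771 in the others. At least 6 of 9 noradrenergic neuroblastoma markers, among them HAND2 and GATA3, reached 5 CPM in every sample, while TH and DBH, the enzymes of catecholamine synthesis, had at most 6 counts in any sample.

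With 13cRA, alone or with doxazosin, HTR3A and CHRNA7 were lower and CHRNA3 was higher than in DMSO. With the combination CHRNA5 was also higher, and HTR3A was at its lowest level. With doxazosin alone the members stayed within 0.53 of DMSO on the log2 scale. HTR3B and CHRNA4 had at most 29 counts in a sample.

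**Figure D1:**
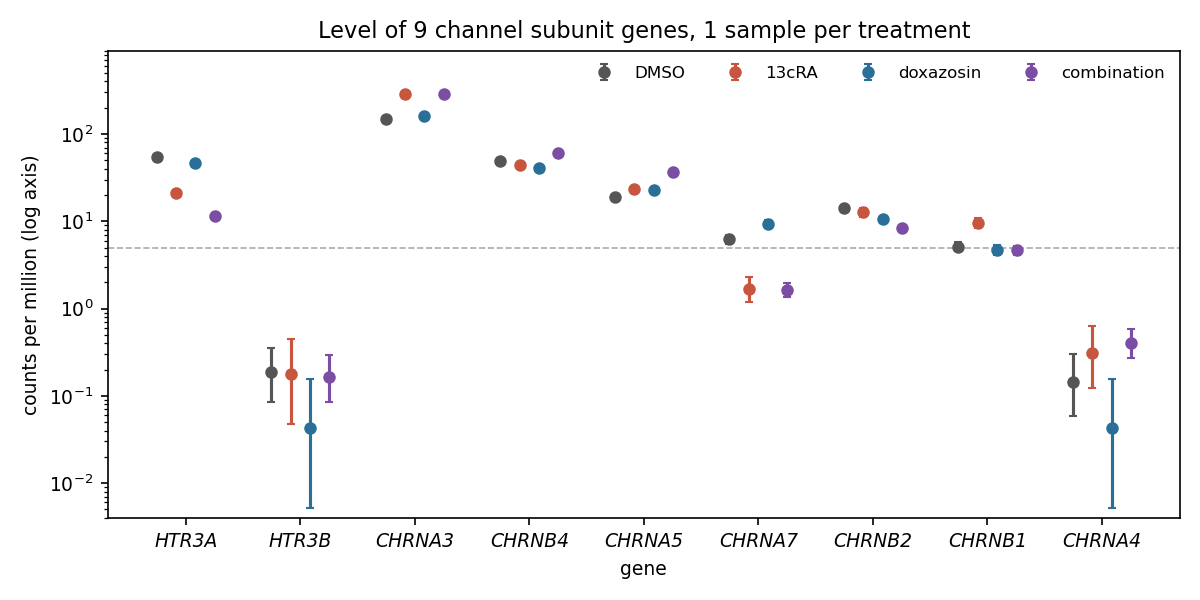
Level of each of the 9 genes in the 4 samples, in CPM on a log axis; bars are exact 95% Poisson intervals and the dashed line marks 5 CPM. CHRNA3 has 149 to 291 CPM and is also the highest per length in every sample, and HTR3B and CHRNA4 lie below 0.5 CPM.

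HTR3A, the subunit without which no 5-HT3 channel forms, had 54.2 CPM in DMSO (interval 52.1 to 56.3), 21.0 CPM in 13cRA (19.2 to 23.0), 46.5 CPM under doxazosin (44.5 to 48.5) and 11.5 CPM under the combination (10.7 to 12.3). None of these 4 counting intervals overlap, and the order was DMSO, doxazosin, 13cRA, combination. On the log2(CPM + 1) scale the difference from DMSO was -1.32 for 13cRA, -0.22 for doxazosin and -2.15 for the combination, which share the DMSO sample. Against doxazosin alone the combination differed by -1.93, and against 13cRA alone by -0.82. In CPM, HTR3A was thus 2.58-fold lower in 13cRA and 4.73-fold lower in the combination than in DMSO.

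The cells that carried HTR3A reads were also fewer. A thinned cell had at least 1 HTR3A count in 54.3% of DMSO cells (48.7 to 59.8, exact Clopper-Pearson 95% interval over cells), 14.5% of 13cRA cells (10.3 to 19.4), 49.8% of doxazosin cells (43.2 to 56.4) and 20.4% of combination cells (15.7 to 25.7). Unthinned, they came to 66.6%, 14.8%, 68.2% and 29.3%. The DMSO and doxazosin intervals overlap, and those of 13cRA and the combination overlap each other but neither of the first pair. The order of the last pair is opposite in shares and in CPM, so none is read from the shares.

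Among cells with a count, the mean was 3.34 HTR3A counts in DMSO, 4.42 in 13cRA, 2.97 under doxazosin and 2.04 under the combination. In 13cRA the reads were concentrated: 6 cells held 50% of all HTR3A counts, against 43 in DMSO, 23 under doxazosin and 9 under the combination. A lower share with more counts per positive cell was common to the 13cRA sample. The 1342 genes at 25 to 100 CPM in DMSO that differed by under 0.25 on the log2 scale in 13cRA had a median share of 54.9% in DMSO and 41.6% in 13cRA, with median counts per positive cell of 3.06 and 4.11. Their share was 56.2% under doxazosin and 54.8% under the combination. HTR3A, at 14.5% in 13cRA, had a lower level there than those genes and lay below their median share. How much of its share follows from this feature of the library was not tested.

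**Figure D2:**
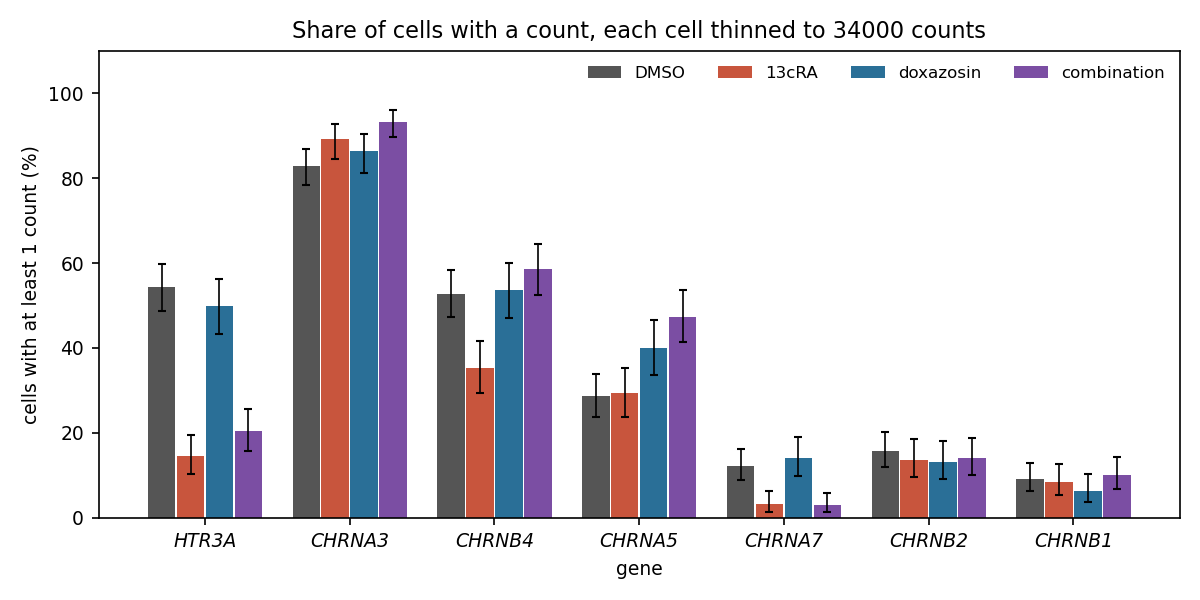
Share of cells with at least 1 count after thinning every cell to 34000 counts, for the 7 genes that reach 5 CPM in a sample; bars are exact Clopper-Pearson 95% intervals over the cells of 1 sample. HTR3A falls into a high pair (54.3% and 49.8%) and a low pair (14.5% and 20.4%), and CHRNA7 into 12.2% and 14.0% against 3.21% and 2.96%.

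HTR3B, the partner subunit that lowers the calcium permeability of 5-HT3 channels, had 9 counts in DMSO, 4 in 13cRA, 2 under doxazosin and 12 under the combination, or 0.187, 0.177, 0.0433 and 0.166 CPM. All 4 counting intervals overlap. Per exon length its level was 0.00413 of that of HTR3A in DMSO and 0.0174 in the combination, where HTR3A itself was lowest. No direction is given for HTR3B at these counts.

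CHRNA3, the alpha subunit of the ganglionic receptor, had 149 CPM in DMSO (146 to 153), 291 CPM in 13cRA (284 to 298), 162 CPM under doxazosin (159 to 166) and 289 CPM under the combination (285 to 293). The intervals of 13cRA and the combination overlap each other and lie above the other 2. The log2 differences from DMSO were 0.96 for 13cRA, 0.12 for doxazosin and 0.95 for the combination, just inside a 2-fold difference, and the combination differed from 13cRA by -0.01 and from doxazosin by 0.83. When libraries were scaled by TMM factors, which shift the median of all genes by -0.32 between 13cRA and DMSO, the CHRNA3 difference for 13cRA was 0.62, and the combination then lay 0.30 above 13cRA. Among cells of 34000 to 120000 counts the combination differed from 13cRA by -0.38, so no direction is given for that pair.

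CHRNA3 was already common among cells, with a count in 82.9% of thinned DMSO cells (78.4 to 86.8), 89.2% in 13cRA (84.6 to 92.7), 86.4% under doxazosin (81.3 to 90.5) and 93.3% under the combination (89.7 to 96.0). The median thinned cell held 4 counts in DMSO, 8 in 13cRA, 4 under doxazosin and 9 under the combination. The higher level with 13cRA was thus seen as more counts in the median cell. With a count already in 82.9% of DMSO cells, the share for CHRNA3 had little room to rise. It is therefore not contrasted with HTR3A, where positive cells were fewer. The 1342 genes of 25 to 100 CPM also had more median counts per positive cell in 13cRA (4.11) than in DMSO or the combination (both 3.06). How much of the CHRNA3 counts per cell in 13cRA follows from this was not tested.

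**Figure D3:**
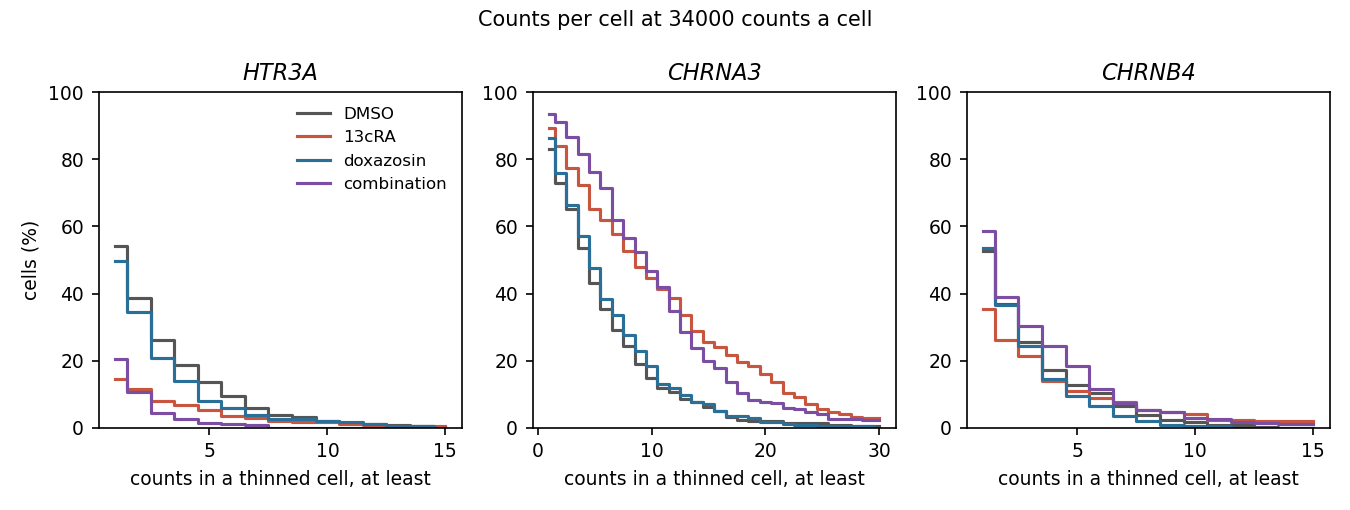
Percent of thinned cells (vertical axis) with at least the number of counts on the horizontal axis, for HTR3A, CHRNA3 and CHRNB4, 1 line per sample. For CHRNA3 the 13cRA and combination lines run above those of DMSO and doxazosin at the median cell (8 and 9 counts against 4 and 4); for HTR3A the same pair starts lower, at 14.5% and 20.4%.

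CHRNB4, the beta subunit that pairs with CHRNA3, differed less: 49.3 CPM in DMSO (47.3 to 51.3), 43.6 in 13cRA (41.0 to 46.5), 41.1 under doxazosin (39.3 to 43.0) and 61.0 under the combination (59.2 to 62.8). The combination lay above the other 3, and the intervals of the single drugs overlap. Log2 differences from DMSO were -0.17 for 13cRA, -0.26 for doxazosin and 0.30 for the combination. The first is 0.01 when only cells of 34000 to 120000 counts are used, so its sign depends on which cells are summed.

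The share of thinned cells with a CHRNB4 count was 52.7% in DMSO (47.2 to 58.3), 35.3% in 13cRA (29.4 to 41.6), 53.6% under doxazosin (47.0 to 60.1) and 58.5% under the combination (52.4 to 64.5). Only the 13cRA interval stands apart, and positive cells there held 4.44 counts on average, against 3.27 in DMSO. The medians of the 1342 genes of like level were 41.6% and 4.11 counts in 13cRA, and the part of this feature of the library in the CHRNB4 share was not tested.

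CHRNA5, an accessory subunit that modifies CHRNA3 channels and forms none alone, had 18.8 CPM in DMSO (17.6 to 20.1), 23.2 in 13cRA (21.3 to 25.3), 22.8 under doxazosin (21.5 to 24.3) and 36.7 under the combination (35.3 to 38.1). The combination was the highest, both single drugs overlapped each other, and DMSO was the lowest. Log2 differences from DMSO were 0.29, 0.27 and 0.93. The value for 13cRA became -0.03 with TMM factors, while that of the combination ranged from 0.81 to 1.14 over the alternatives. Thinned shares were 28.7% in DMSO (23.8 to 33.9), 29.3% in 13cRA (23.7 to 35.4), 40.0% under doxazosin (33.7 to 46.6) and 47.4% under the combination (41.3 to 53.5), and the combination interval lies above those of DMSO and 13cRA.

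Because the 3 ganglionic subunits share 1 receptor, their relative levels were compared per kilobase of exon. CHRNB4 stood at 0.316 of CHRNA3 in DMSO (0.302 to 0.332), 0.144 in 13cRA (0.134 to 0.154), 0.242 under doxazosin (0.23 to 0.255) and 0.202 under the combination (0.196 to 0.209). None of these intervals overlap, and the ratio was lowest in 13cRA. CHRNA5 stood at 0.166 of CHRNA3 in DMSO, 0.105 in 13cRA, 0.185 under doxazosin and 0.167 under the combination. DMSO and the combination thus had a like ratio of CHRNA5 to CHRNA3, and 13cRA a lower one. Ratios within a sample do not depend on how samples are scaled. With the length of the principal transcript in place of all exons, a choice made after seeing the data, the CHRNB4 ratios became 0.403, 0.183, 0.309 and 0.258 in the same sample order, which keeps their order.

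**Figure D4:**
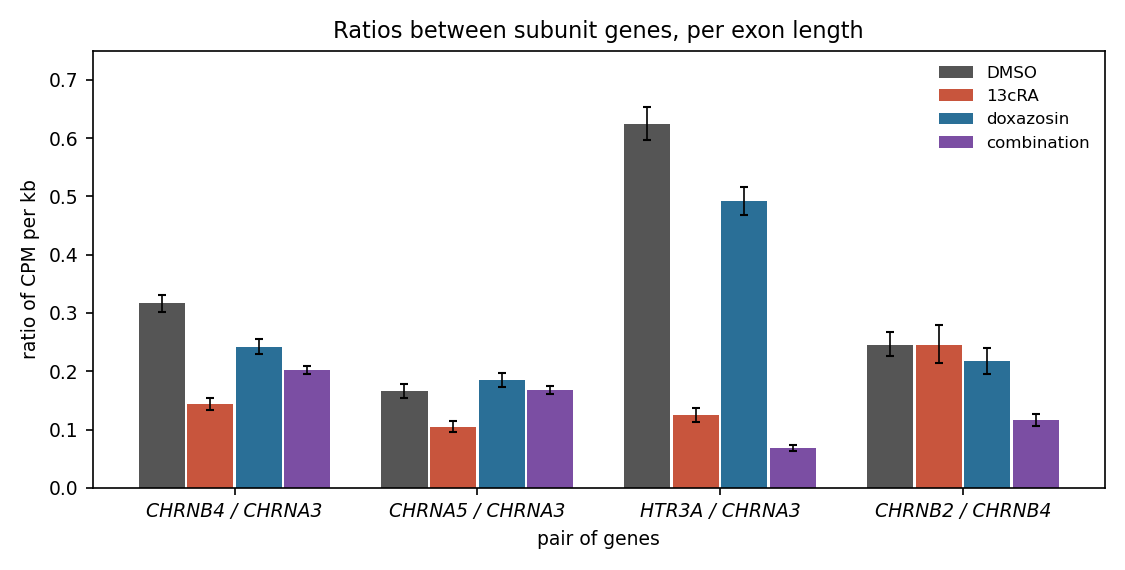
Ratios of per-length levels between pairs of genes in each sample, with 95% intervals of the ratio for counting error. CHRNB4 to CHRNA3 is lowest in 13cRA at 0.144, HTR3A to CHRNA3 goes from 0.624 in DMSO to 0.0682 in the combination, and CHRNB2 to CHRNB4 is lowest in the combination at 0.116.

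At single-cell level, a thinned cell had counts of CHRNA3, CHRNB4 and CHRNA5 together in 13.4% of DMSO cells (9.92 to 17.6), 14.5% of 13cRA cells (10.3 to 19.4), 20.4% of doxazosin cells (15.5 to 26.2) and 29.6% of combination cells (24.2 to 35.5). The combination interval lies above those of DMSO and 13cRA. The products of the 3 single shares were 12.5%, 9.24%, 18.5% and 25.9%, so the triple was seen about as often as separate detection gives, except in 13cRA, where the product lies below the interval. In 13cRA, 73 of 73 cells with CHRNA5 also had CHRNA3, against 84.7% of those without it, and CHRNA5 was seen in 40.9% of cells with CHRNB4 and 23.0% of those without. The second pair was 28.9% and 28.4% in DMSO, 42.1% and 37.6% under doxazosin and 52.5% and 40.2% under the combination. For CHRNA3 in cells with and without CHRNA5 it was 84.0% and 82.5% in DMSO. Doxazosin gave 92.6% and 82.3%, and the combination 96.9% and 90.1%. HTR3A and CHRNA3 were seen together in 46.3% of DMSO cells against a product of 45.0%, and in 12.9% of 13cRA cells against 12.9%. These are descriptions over cells that share 1 library, with no test.

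CHRNA7, the subunit of the homomeric receptor, had 6.19 CPM in DMSO (5.50 to 6.93), 1.68 in 13cRA (1.19 to 2.30), 9.38 under doxazosin (8.52 to 10.3) and 1.63 under the combination (1.35 to 1.96). The samples with 13cRA overlap each other and lie below both samples without it. Log2 differences from DMSO were -1.42 for 13cRA, 0.53 for doxazosin and -1.45 for the combination, and the combination differed from doxazosin by -1.98. Thinned shares were 12.2% (8.86 to 16.2), 3.21% (1.40 to 6.23), 14.0% (9.87 to 19.2) and 2.96% (1.29 to 5.75) in the order DMSO, 13cRA, doxazosin, combination, split in the same way.

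In doxazosin 1 cell held 26.1% of the CHRNA7 counts, and without the highest cell of each sample the difference from DMSO was 0.21. The 13cRA value rests on 38 counts and became -0.83 without the cell filter, -0.85 as a mean of per-cell CPM and -0.74 with a pseudocount of 5 CPM, inside a 2-fold difference. CHRFAM7A, a fusion gene that carries a near-identical partial copy of CHRNA7, had 2.08, 0.707, 1.67 and 0.831 CPM in the same order. How the counting split reads between the copies is not given in the sources used here, and the CHRFAM7A levels were also lower in both samples with 13cRA.

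The remaining subunits were low. CHRNB2, the beta subunit of the main brain receptor, had 14.3 CPM in DMSO (13.3 to 15.5), 12.6 in 13cRA (11.2 to 14.2), 10.6 under doxazosin (9.65 to 11.6) and 8.41 under the combination (7.75 to 9.10). The log2 difference of the combination from DMSO was -0.71, yet among cells of 34000 to 120000 counts it was 0.69, and the thinned shares of 13.2% to 15.9% all overlap. The direction for CHRNB2 therefore depends on the cells used, of which the combination has only 38 in that depth range. CHRNA4, which CHRNB2 needs for that receptor, had 7, 7, 2 and 29 counts, at most 0.402 CPM.

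CHRNB1, a subunit of the muscle receptor, had 5.13 CPM in DMSO (4.51 to 5.81), 9.63 in 13cRA (8.39 to 11), 4.68 under doxazosin (4.08 to 5.35) and 4.64 under the combination (4.16 to 5.16). The 13cRA sample alone lay higher, by 0.79 on the log2 scale. The share of thinned cells did not differ in the same way: 9.15% in DMSO, 8.43% in 13cRA, 6.38% under doxazosin and 10.0% under the combination, with all intervals overlapping. Positive cells held 5.52 counts on average in 13cRA against 2.13 in DMSO. The cells that held 50% of the counts numbered 11 in DMSO, 6 in 13cRA, 2 under doxazosin and 7 under the combination. In doxazosin 1 cell held 35.6% of the CHRNB1 counts. Without the highest cell of each sample the difference from DMSO was -0.50 for doxazosin and 0.70 for 13cRA. MYOG, a muscle regulator, had 4.71, 5.57, 1.93 and 3.93 CPM. Of the other muscle markers, MYH3 had 1.04, 0.839, 0.736 and 1.48 CPM, and MYOD1, DES and ACTA1 had 0 counts in 13cRA. The other subunits of the muscle receptor stayed below 5 CPM in every sample.

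**Figure D5:**
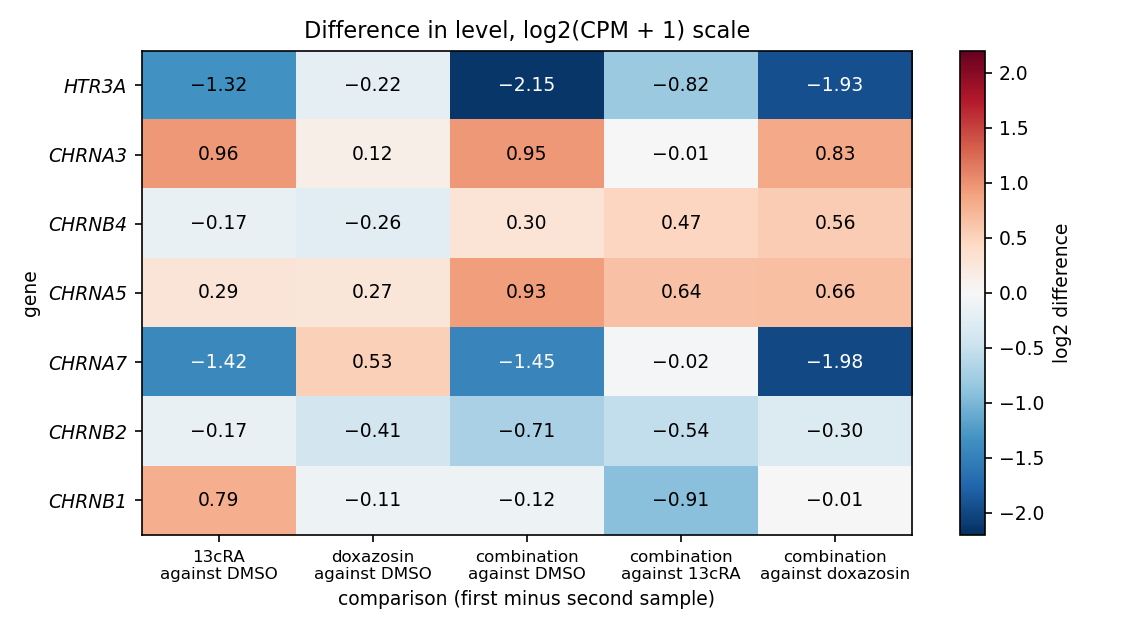
Log2 differences on the log2(CPM + 1) scale for the 7 genes that reach 5 CPM (vertical axis) in 5 comparisons (horizontal axis), blue for lower and red for higher in the first sample. HTR3A and CHRNA7 are the genes beyond 1 in size, in the 3 comparisons of a sample with 13cRA against one without it.

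Set against all genes, a 2-fold difference (1 on the log2 scale, for genes that reach 5 CPM in one or both samples) was reached by few members. In 13cRA against DMSO, 2 of 7 members were lower, HTR3A and CHRNA7, where 3.74% of 10213 genes were, and 0 were higher, where 7.57% of genes were. In the combination against DMSO the same 2 of 7 were lower against 2.09% of 9885 genes, and 0 were higher against 3.48%. In the combination against doxazosin 2 of 6 were lower, again HTR3A and CHRNA7, against 2.34% of 9847 genes, and 0 were higher against 3.68%. CHRNA7 passed the minimum only through the samples where it was high, and the members were chosen with these differences known, so the counts support nothing by themselves.

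In doxazosin against DMSO 0 of 7 members were past the fold in either direction, where 1.06% of 9705 genes were higher and 0.835% lower. In the combination against 13cRA 0 of 6 were, where 3.26% of 10178 genes were higher and 5.96% lower. The median member difference was -0.17 for 13cRA, -0.11 for doxazosin and -0.12 for the combination against DMSO, where the medians of all genes were 0.00, -0.02 and -0.02. For the combination it was -0.27 relative to 13cRA and 0.13 relative to doxazosin. A median near 0 here joins members that were higher with members that were lower.

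Per length, CHRNA3 had rank 1 among the members in every sample, and some of the ranks below it differed between samples. In DMSO CHRNA3 made up 44.7% of the summed per-length level of the 9 genes and HTR3A 27.9%. In 13cRA they made up 69.1% and 8.59%, in doxazosin 49.6% and 24.4%, and in the combination 67.5% and 4.60%. By this measure HTR3A had rank 2 in DMSO and doxazosin, rank 3 in 13cRA, behind CHRNB4, and rank 4 in the combination, behind CHRNB4 and CHRNA5. CHRNA7 had rank 7 in every sample, also with its principal transcript of 6181 bases in place of its 20978 bases of annotated exon.

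By the distance of centred log2(CPM + 1) over the 4 samples, the genes most like HTR3A among 6739 candidates were SMCO4 (distance 0.42), ZNF443 (0.50), SLIT3 (0.55), MBNL3 (0.57) and CNTNAP2 (0.63). SMCO4, the nearest, had 35.5, 9.76, 26.2 and 7.91 CPM in DMSO, 13cRA, doxazosin and the combination. Those most like CHRNA3 were ZFHX4 (0.05), FAM110B (0.09), ADCY1 (0.13), SNAI1 (0.15) and EXT2 (0.15), and ZFHX4 had 26.4, 50.1, 28.3 and 52.3 CPM. The likeness is over 4 samples and says nothing of function.

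Genes that act with the members were read from lists. Among 12 genes of receptor folding and trafficking, 8 reached 5 CPM in 13cRA against DMSO and 0 were past the fold. RER1, which retains receptor subunits early in the secretory pathway, had 30.3 and 21.3 CPM in these samples, but 1 cell held 37.9% of its 13cRA counts, and without the highest cells its difference was -1.06, past the fold. RIC3, a chaperone of CHRNA7 and 5-HT3 channels, had 2.16, 1.68, 9.36 and 1.01 CPM, but 79.9% of its doxazosin counts came from 1 cell, and without the highest cell of each sample its difference from DMSO was 0.19. TMEM35A, the other chaperone on which CHRNA7 channels depend, had 0 counts in DMSO, doxazosin and the combination and 9 in 13cRA. Of the 13cRA counts 8 came from 1 cell. With 3 counts taken as the limit for a count of 0, levels of up to 0.0623, 0.0650 and 0.0416 CPM are not excluded in those 3 samples. CALR, a chaperone of the endoplasmic reticulum, had 185, 118, 173 and 158 CPM.

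Of 11 genes of the Ly6 family, small proteins that bind nicotinic receptors or share their fold, 3 reached 5 CPM. LYPD6 had 47.9, 17.7, 39.7 and 27.9 CPM, a difference of -1.39 in 13cRA and -0.76 in the combination, and LY6E had 56.4, 32.6, 63.9 and 38.4 CPM. Both were lower in the samples with 13cRA than in those without it. CD59, a complement inhibitor with the same fold, had 45.0, 35.5, 45.7 and 57.6 CPM and did not follow that split.

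For the transmitter acetylcholine, 3 of 8 genes reached 5 CPM. CHAT, the enzyme that makes it, had 64.5 CPM in DMSO, 79.0 in 13cRA, 82.0 under doxazosin and 87.3 under the combination. In the combination 1 cell held 18.9% of the CHAT counts, and without the highest cell of each sample CHAT had 62.4, 73.2, 78.7 and 70.8 CPM. SLC18A3, the vesicular acetylcholine transporter, had 10.4, 4.59, 3.99 and 4.34 CPM, past a 2-fold difference in all 3 treated samples (-1.03, -1.19 and -1.10). In DMSO 1 cell held 21.2% of its counts, and without the highest cells the differences were -0.87, -0.97 and -0.96. ACHE, which degrades acetylcholine, had at most 9 counts in a sample, and 0 of 5 muscarinic receptor genes reached 5 CPM.

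For serotonin, 1 of 20 genes of synthesis, transport, breakdown and other receptors reached 5 CPM. It was MAOA, which degrades serotonin and catecholamines, with 7.33, 18.1, 10.4 and 21.1 CPM, so 1.20 higher in 13cRA and 1.41 higher in the combination than in DMSO on the log2 scale. Among 13 other nicotinic and 5-HT3 subunits, CHRNA9 alone reached 5 CPM, with 20.9, 20.7, 23.9 and 19.6 CPM. Among glycine and GABA-A receptor subunits, relatives of the same channel family, were GABRA3 with 20.3, 16.3, 22.1 and 24.5 CPM and GABRA5 with 3.18, 5.43, 2.19 and 7.52 CPM. GABRA5 was past the fold in the combination against DMSO (1.03), but not without the highest cells (0.87).

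Of 10 genes that flank the clusters, 5 reached 5 CPM, and 0 were past the fold against DMSO in any treated sample. IREB2, near CHRNA5, had 81.2, 84.3, 93.0 and 109 CPM, and PSMA4, which lies between IREB2 and CHRNA5, had 510, 409, 582 and 591 CPM. MORF4L1, beyond the other end of that cluster, had 457, 408, 513 and 443 CPM. USP28, near HTR3B, had 21.5, 12.3, 24.3 and 27.9 CPM, with its lowest level in 13cRA but its highest in the combination, where HTR3A was lowest.

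Markers of the cell state moved with some members. ISL1, a factor of sympathetic neurons among the noradrenergic markers, had 54.4, 11.9, 49.3 and 26.0 CPM, and GATA2 had 13.4, 6.58, 11.1 and 2.92 CPM, lower like HTR3A in both samples with 13cRA. In the combination 1 cell held 46.7% of the ISL1 counts, and without the highest cell of each sample ISL1 had 51.9, 10.5, 47.3 and 13.8 CPM. GATA3 had 313, 465, 315 and 294 CPM, which did not follow that split. In the sample order DMSO, 13cRA, doxazosin, combination, 5 endothelial markers summed to 6.27, 23.5, 5.65 and 14.2 CPM. Of these sums CLDN5 alone gave 0.540, 19.7, 0.715 and 11.1 CPM. EGFL7, the only other endothelial marker to reach 5 CPM, went the other way, with 5.00, 1.06, 4.22 and 1.37 CPM. The 6 fibroblast markers summed to 12.7, 24.0, 11.6 and 8.60 CPM and the 5 Schwann cell markers to 0.664, 9.72, 1.30 and 2.80 CPM. Among the fibroblast markers, COL1A2 had 6.31, 3.53, 6.84 and 2.19 CPM, lower in both samples with 13cRA. PDGFRB had 4.65, 7.64, 2.38 and 3.82 CPM. In 13cRA 1 cell held 77.4% of the counts of the fibroblast marker COL3A1 and 1 cell held 65.5% of those of the Schwann marker ERBB3. The 5 muscle markers summed to 5.88, 6.41, 3.77 and 6.05 CPM, with 3 of them at 0 counts in 13cRA. Leukocyte and epithelial markers summed to at most 0.910 and 1.55 CPM. Their part in the differences of the channel genes was not tested.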

How the data were processed

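Whole-number read counts per gene and cell were deposited by the authors as 1 table, which was used as it stands: 60651 versioned Ensembl IDs, 1287 cells. Seurat 4.3.0, featureCounts, STAR 2.7.8a, fastp 0.23.3 and bcl2fastq are named as tools, per the submitters' processing notes, with GRCh37 and GRCh38.p13 as builds of unstated role. Not given in the sources used here are the annotation release, strand setting, treatment of reads shared between genes and any cell filter. Full-length libraries of single imaged wells were made on an ICELL8 chip, per the labels' protocols.

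Cells with at least 500 genes and at most 25% mitochondrial counts were kept, 1197 of 1287, and no doublet caller was run. Their counts were summed per sample to CPM (Python 3.11.15, numpy 2.4.6, scipy 1.17.1), and differences are log2 with a pseudocount of 1 CPM. With 1 sample per treatment no p-value was computed. Shares of cells used each cell thinned at random to 34000 counts. The difference formula was tested on simulated Poisson sums, for better-expressed genes only and after taking off the median shift of unchanged genes. Thinning was tested on simulated cells. Neither simulation held amplification or cells that dominate a gene. Exon lengths are from GENCODE 29.

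Members and lists were chosen with earlier results of these data known. All 9 members are named; list genes are named at 5 CPM or more, up to 4 a list by largest difference from DMSO, with CHRFAM7A, RIC3, TMEM35A and ACHE always, and marker genes by choice after their values were seen. The 5 nearest patterns had at least 20 CPM in a sample. Alternatives were TMM factors (edgeR 4.0.16), size factors (DESeq2 1.42.0), pseudocount 5 CPM, mean per-cell CPM, no cell filter, at least 2000 genes, no minimum CPM, leaving out each gene's highest cell, and cells of 34000 to 120000 counts. Some genes of the lists are not reported here.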

Additional observations from a re-analysis of the deposited data

Results flagged for a closer look

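CHRNB4 was picked out because its level differed one way with each drug alone and the other way with it beside the second drug. The counting intervals were off 0 on both sides. For 13cRA the log2 difference was -0.17 against DMSO and 0.56 on top of doxazosin, and for doxazosin it was -0.26 against DMSO and 0.47 on top of 13cRA. Both describe the same departure from additivity, 0.73 on the log2 scale. Other members also departed from it, among them CHRNB1 (-0.80), HTR3A (-0.61) and CHRNA7 (-0.55). The spread of this value over all genes is not given here. In CPM the samples had 49.3 (DMSO), 43.6 (13cRA), 41.1 (doxazosin) and 61.0 (combination), and 1 combination cell held 10.0% of the counts there. The share of thinned cells with a CHRNB4 count was 52.7% in DMSO and 53.6% under doxazosin, not lower as the level was. With 1 sample per treatment the difference was not tested, and a drug cannot be told apart from its culture well. The log2 difference of 13cRA alone from DMSO was 0.01 among cells of 34000 to 120000 counts, where its direction is lost.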

How the results depend on the processing

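No paired analysis was possible because each treatment has 1 sample. HTR3A kept its direction in all 5 comparisons under the 8 alternatives that change a level, from -1.77 to -1.18 for 13cRA and from -2.34 to -1.85 for the combination against DMSO. CHRNA3 ranged from 0.62 to 1.00 and from 0.61 to 0.97 in the same comparisons. The number of members past a 2-fold difference changed as follows, and the cause was not tested. The share of all genes past the fold under each alternative is not given here, so these changes are not read as particular to the members. Higher members in 13cRA went from 0 to 1 (CHRNB1) with the mean of per-cell CPM and among cells of 34000 to 120000 counts. Lower members in 13cRA went from 2 to 1 (HTR3A) with the mean of per-cell CPM, without the cell filter and with a pseudocount of 5 CPM. Lower members in doxazosin went from 0 to 1 (CHRNB1) among cells of 34000 to 120000 counts. In the combination higher members went from 0 to 1 (CHRNA5) without the cell filter and among cells of that depth, and lower members from 2 to 1 (HTR3A) with a pseudocount of 5 CPM. For the combination against 13cRA lower members went from 0 to 1 (CHRNB1) in that depth range and with the mean of per-cell CPM. The 2 lower members of the combination against doxazosin stayed past the fold under each alternative. Depth limits HTR3B and CHRNA4, where 3 counts are 0.0416 to 0.133 CPM.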
